A study of Mus musculus with 9 samples.

Results

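The MHC class II genes were followed in testes of 3-week-old mice during the first wave of spermatogenesis. They are 7 of the 22337 genes in the expression table, found by symbol: H2-Eb1, H2-Aa, H2-Ab1, H2-DMa, H2-DMb1, Cd74 and Ciita. The list was chosen by measured values, because H2-Eb1 was lower in homozygous knock-in testes than in both other genotypes. For that reason every member's difference between the homozygous testes and either other genotype is given as a description, with no test.

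The mice carried R264W, a missense change in Piwil4 placed in C57BL/6 zygotes by CRISPR-Cas9. Testes were wild-type (WT-WT), Piwil4 WT/R264W (WT-KI) or Piwil4 R264W/R264W (KI-KI), with 3 libraries of each genotype, all from animals of the same age with no other treatment named. The sources used here do not say whether the libraries of a genotype came from separate animals or from 1 founder line, so the tests measure the spread between these libraries, which may in part be technical. RNA came from whole testis, so fewer cells of a type and less RNA per cell cannot be told apart.

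MHC class II molecules sit on the surface of antigen-presenting cells and show peptides to CD4 T cells. Each is a pair of an alpha and a beta chain: H2-Aa with H2-Ab1 forms I-A, and H2-Eb1 is the beta chain of I-E. The invariant chain, Cd74, holds the new pair and carries it to endosomes, where the H2-DMa and H2-DMb1 pair helps exchange the invariant chain's last fragment for a peptide. Ciita, the class II transactivator, is recruited to class II promoters by the RFX and NF-Y complexes and by CREB-family factors. In the testis, class II protein is known mainly from macrophages close to the seminiferous tubules. C57BL/6 mice lack a working gene for the I-E alpha chain, H2-Ea, so that I-E is not assembled even where H2-Eb1 is transcribed.

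The sequences upstream of 3 members are shown because they carry the letters through which this shared control is known to work. Each line is the stretch of 250 bases before the transcription start in RefSeq on GRCm38.p6, written 5′ to 3′ on the gene's strand, and the capitals mark 2 sets of letters: GNAAC, from the X box that RFX binds, and TGATTGG, the Y box that NF-Y binds. The stretch of H2-Eb1 lies at chr17:34305617-34305866 on the plus strand, that of H2-Aa at chr17:34287824-34288073 on the minus strand and that of H2-DMb1 at chr17:34152941-34153190 on the plus strand.
H2-Eb1: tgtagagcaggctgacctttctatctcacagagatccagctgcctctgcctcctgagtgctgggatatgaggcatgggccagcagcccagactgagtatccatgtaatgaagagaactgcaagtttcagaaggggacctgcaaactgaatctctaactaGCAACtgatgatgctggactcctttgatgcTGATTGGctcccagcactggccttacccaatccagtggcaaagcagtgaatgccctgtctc
H2-Aa: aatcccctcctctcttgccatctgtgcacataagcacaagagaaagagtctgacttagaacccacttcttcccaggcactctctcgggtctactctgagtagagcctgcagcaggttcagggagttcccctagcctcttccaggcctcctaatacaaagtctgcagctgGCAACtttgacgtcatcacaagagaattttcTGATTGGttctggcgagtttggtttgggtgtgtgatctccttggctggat
H2-DMb1: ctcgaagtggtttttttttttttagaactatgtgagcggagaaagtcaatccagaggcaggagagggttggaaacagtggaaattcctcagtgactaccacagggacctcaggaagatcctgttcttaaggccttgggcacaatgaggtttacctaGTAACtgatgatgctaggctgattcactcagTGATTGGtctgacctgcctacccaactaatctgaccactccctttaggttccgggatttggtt

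In H2-Eb1 the capitals began 91 and 61 bases before the start, in H2-Aa 81 and 50 bases before it, and in H2-DMb1 94 and 63 bases before it. The search asked for GNAAC followed after 15 to 40 bases by TGATTGG, without overlap, and was written after these sequences had been seen. Over all windows it was run on either strand, and for the class II genes on the gene's own strand only. It matched 200 of 32851 upstream windows of this length in the table, 0.609%. Among 13 class II genes listed, 8 had a window that was searched here and 6 of these genes matched, namely the 3 above with H2-Eb2, H2-Oa and H2-Ob. H2-DMa had 2 windows and neither held TGATTGG, while H2-DMb2 held TGATTGG but did not match. The sequences of H2-Ab1, Cd74 and Ciita were not used here. A match describes letters only and is no measurement of binding.

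Libraries summed to 17.96 to 24.28 M estimated counts, so 3 counts, taken as the floor of detection, stood for 0.124 to 0.167 counts per M of the library total (CPM). The libraries had come to different points of the first wave. A stage score, averaged in log2 CPM over 19 genes that round spermatids use, was 5.99, 2.62 and 1.43 in WT-WT replicates 1, 2 and 3, then 4.99, 3.60 and 0.85 in WT-KI and 2.50, 3.73 and 5.80 in KI-KI. KI-KI replicate 1 stood apart in epididymal RNA, with 883 counts of Crisp1, a secreted epididymal protein, against 0 to 109 in the other libraries. The knock-in changes 1 residue and gives no value in this table, so the genotypes could not be checked from it.

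All 7 members were found, at low levels. Per length of transcript, as FPKM averaged over the 9 testes, the order was H2-Ab1 at 4.58 ± 1.17 (SD, n = 9), Cd74 at 2.73 ± 1.65, H2-DMa at 2.18 ± 0.50, H2-DMb1 at 1.15 ± 0.23, H2-Aa at 1.10 ± 0.81, H2-Eb1 at 0.54 ± 0.39 and Ciita at 0.026 ± 0.036. Cd74 and H2-DMa, H2-DMb1 and H2-Aa, and H2-Aa and H2-Eb1 differed by less than the larger of their SDs, and the other neighbours in this order differed by more. H2-Ab1 had a higher mean FPKM than 57.5% of all genes in the table and H2-Eb1 than 37.1%. The chains of one molecule did not stand at one level: H2-Aa was at 0.107 to 0.411 of the FPKM of its partner H2-Ab1 in the 9 libraries.

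The spread over testes split the members. The highest of the 9 libraries exceeded the lowest 8.26-fold in CPM for H2-Eb1, 7.33-fold for H2-Aa and 5.38-fold for Cd74. The same ratio was 2.41 for H2-DMa, 1.91 for H2-Ab1 and 1.78 for H2-DMb1. For H2-Eb1 the lowest library was KI-KI replicate 2, with 6 counts. That value is low by the choice of members, so nothing is read from the ratio of H2-Eb1.

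**Figure D1:**
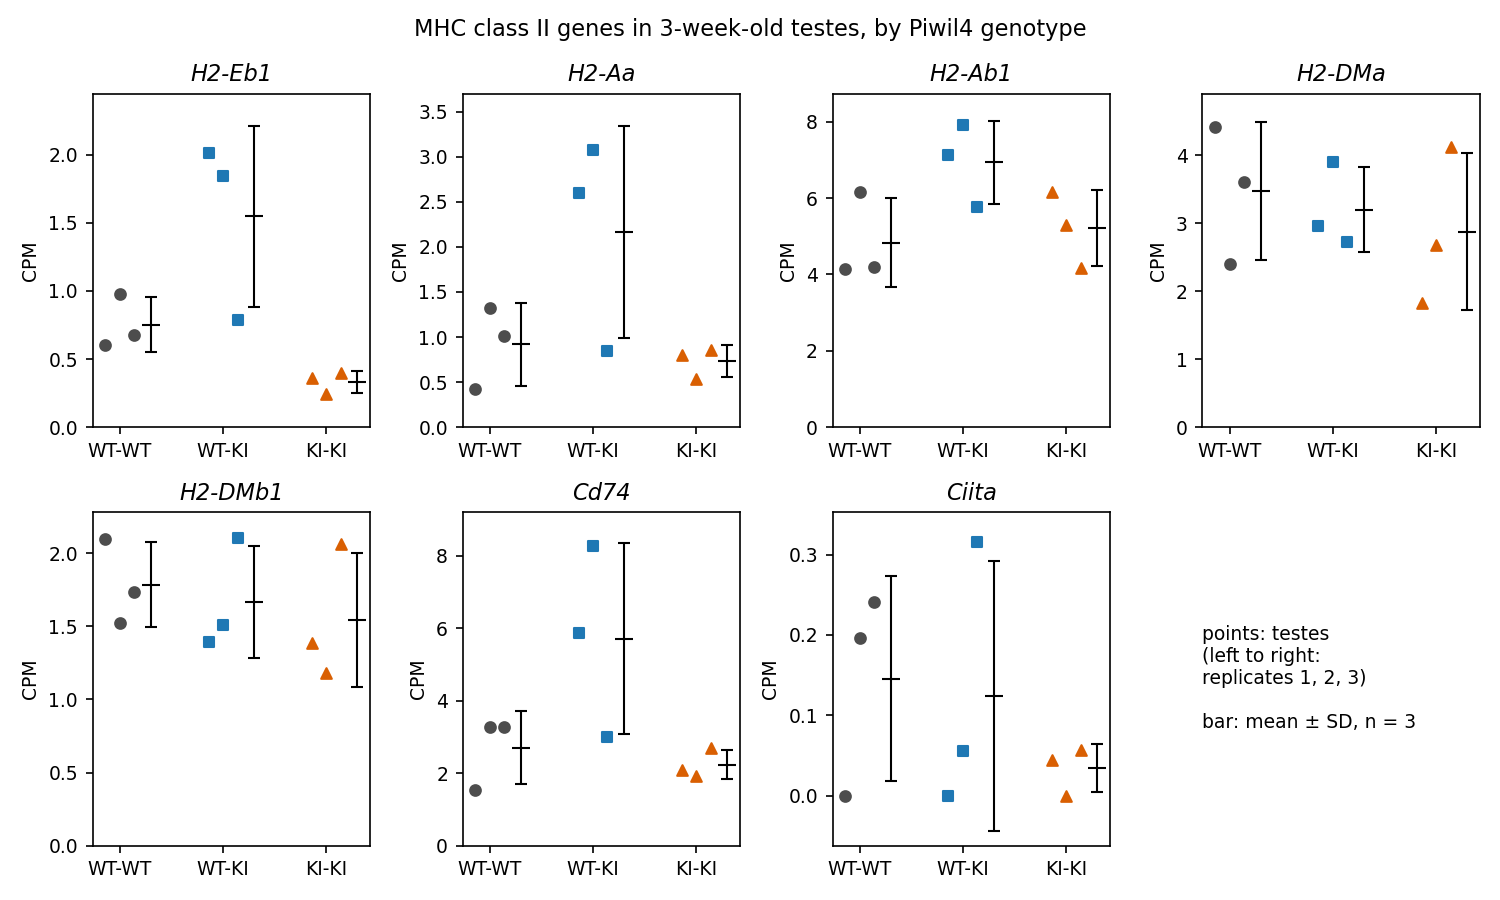
Abundance of the 7 MHC class II genes in each testis, in CPM after TMM scaling (vertical axes, linear), by Piwil4 genotype (horizontal axes), with mean ± SD of 3 libraries beside the points. For H2-Eb1 the 3 KI-KI points (0.24 to 0.40 CPM) lie below all others, while for H2-DMa and H2-DMb1 the genotypes overlap.

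H2-Eb1, the I-E beta chain, had 13, 20 and 14 counts in WT-WT replicates 1 to 3, 45, 33 and 15 in WT-KI and 8, 6 and 7 in KI-KI. In CPM these were 0.60, 0.98 and 0.67, then 2.02, 1.84 and 0.79, then 0.36, 0.24 and 0.40. The KI-KI group lay below both other groups without overlap, and WT-KI replicate 3 lay among the wild-type values. Summed over 3 libraries, KI-KI held 21 counts, or 0.325 CPM with a 95% Poisson interval of 0.201 to 0.496, against 47 counts and 0.742 CPM (0.545 to 0.987) in WT-WT and 93 counts and 1.59 CPM (1.29 to 1.95) in WT-KI. These sums use the library totals without TMM scaling. The intervals cover counting error only, not the spread between libraries. H2-Eb1 was chosen as low in KI-KI, so no difference is read from the intervals. No KI-KI library reached the count filter's limit of 0.474 CPM in the comparison with WT-WT, or 0.495 CPM in that with WT-KI, so H2-Eb1 entered both fits through the group in which it was higher. The fitted log2 fold change was -1.17 ± 0.39 (SE) against WT-WT and -2.21 ± 0.46 against WT-KI. On the authors' FPKM scale the groups were closer, with KI-KI at 0.30, 0.14 and 0.22 and WT-WT at 0.33, 0.58 and 0.41, and the log2 difference from WT-WT fell to -0.76 when taken on log2(FPKM + 0.1).

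H2-Aa, the I-A alpha chain, had 9, 27 and 21 counts in WT-WT, 58, 55 and 16 in WT-KI and 18, 13 and 15 in KI-KI. In CPM these were 0.42, 1.32 and 1.01, then 2.60, 3.07 and 0.84, then 0.80, 0.53 and 0.86. WT-KI replicates 1 and 2 were the high libraries, and WT-WT replicate 1 was the lowest of the 9. The KI-KI values lay within the wild-type range, and the highest of them was just above WT-KI replicate 3. The log2 fold change in KI-KI was -0.33 ± 0.48 against WT-WT, which became 0.03 without WT-WT replicate 2, and -1.57 ± 0.51 against WT-KI.

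Cd74, the invariant chain, had 33, 67 and 68 counts in WT-WT and 131, 148 and 57 in WT-KI, while each KI-KI library had 47. In CPM the values were 1.54, 3.28 and 3.28 in WT-WT, 5.87, 8.26 and 2.99 in WT-KI and 2.10, 1.91 and 2.69 in KI-KI. KI-KI lay below WT-KI without overlap and inside the range of WT-WT. The log2 fold change in KI-KI was -0.28 ± 0.34 against WT-WT and -1.35 ± 0.38 against WT-KI.

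H2-Ab1, the I-A beta chain and the best covered member, had 89, 126 and 87 counts in WT-WT, 159, 142 and 110 in WT-KI and 138, 130 and 73 in KI-KI. The groups overlapped in both comparisons of KI-KI. The log2 fold change was 0.11 ± 0.24 against WT-WT, which turned to -0.03 without KI-KI replicate 1, and -0.41 ± 0.21 against WT-KI.

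The peptide-exchange pair overlapped between all genotypes. H2-DMa had 95, 49 and 75 counts in WT-WT, 66, 70 and 52 in WT-KI and 41, 66 and 72 in KI-KI, and its log2 fold change in KI-KI was -0.28 ± 0.37 against WT-WT and -0.16 ± 0.33 against WT-KI. H2-DMb1 ranged from 27 to 45 counts over the 9 libraries, with log2 fold changes of -0.22 ± 0.29 and -0.12 ± 0.31. The value against WT-KI changed sign for H2-DMa without WT-KI replicate 2 (0.01) or KI-KI replicate 1 (0.08), and for H2-DMb1 without WT-KI replicate 3 (0.08) or KI-KI replicate 2 (0.04). H2-DMb1 has a close copy, H2-DMb2, and in WT-KI replicate 1 neither count was whole (30.94 and 2.06), so reads may have been divided between the copies.

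Ciita, the regulator of the others, was near the floor: 0, 4 and 5 counts in WT-WT, 0, 1 and 6 in WT-KI and 1, 0 and 1 in KI-KI. It did not pass the count filter in any comparison and no fold change was taken. The 95% Poisson interval of the summed counts was 0.065 to 0.270 CPM in WT-WT, 0.048 to 0.247 in WT-KI and 0.0037 to 0.112 in KI-KI. These intervals overlap, cover counting error only and are no test of a difference.

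With a threshold of adjusted p under 0.05 and at least 2-fold, edgeR called 0 of 15543 genes (0%) between KI-KI and WT-WT and 0 of 15463 (0%) between KI-KI and WT-KI. DESeq2 called 1 and 2 genes, and 196 and 343 genes had an unadjusted p under 0.05. Groups that did not overlap, with KI-KI the lower, were found for 3.56% of genes tested against WT-WT, where H2-Eb1 was the 1 member, and for 3.78% against WT-KI, where the members were H2-Eb1 and Cd74. The choice of members used both comparisons, so nothing is read from these counts.

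**Figure D2:**
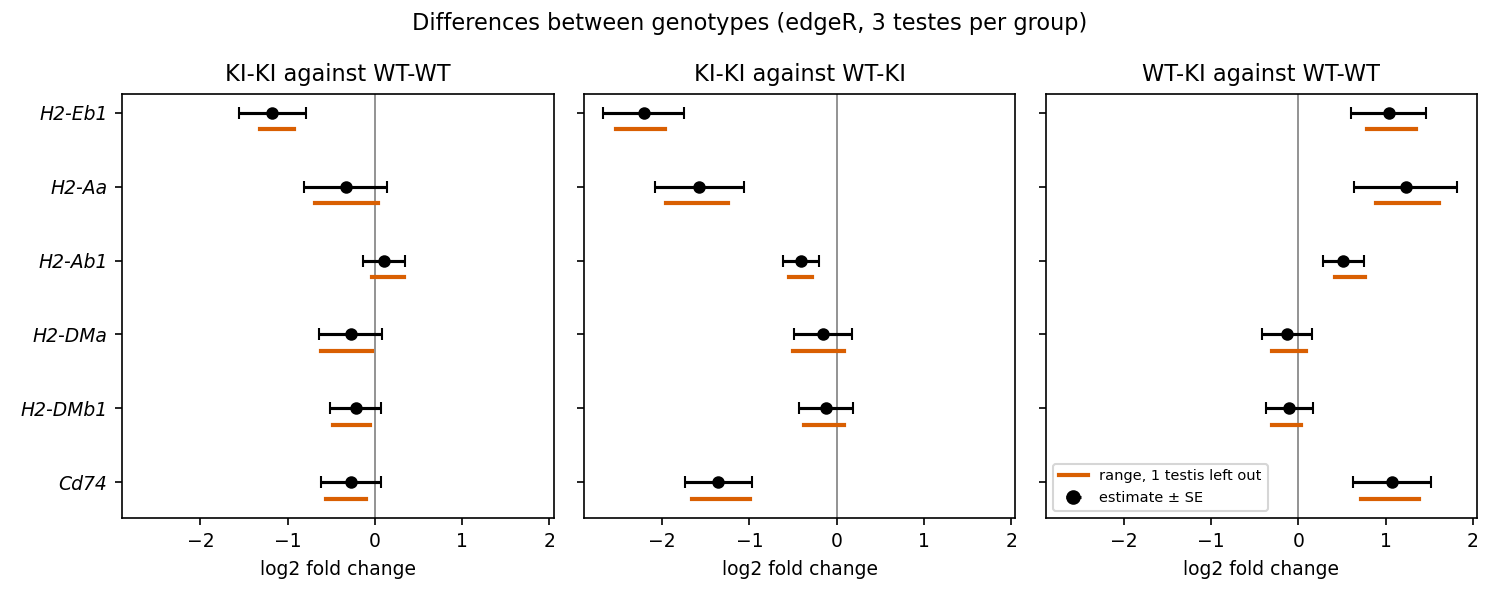
Log2 fold changes (horizontal axes) of 6 class II genes in the 3 comparisons of genotypes, with points for the edgeR estimate, black bars for ± SE and orange bars for the range when 1 testis at a time is left out. H2-Eb1 reads -1.17 and -2.21 in the comparisons of KI-KI, and H2-Eb1, H2-Aa, H2-Ab1 and Cd74 lie between 0.52 and 1.23 in WT-KI against WT-WT.

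Heterozygous against wild-type testes is the comparison of genotypes that the choice of members did not use, and there the members were tested. H2-Aa was 1.23 ± 0.59 higher in WT-KI on the log2 scale, Cd74 1.07 ± 0.45, H2-Eb1 1.03 ± 0.43 and H2-Ab1 0.52 ± 0.23. H2-DMa was at -0.13 ± 0.29 and H2-DMb1 at -0.10 ± 0.27. None passed the test: the unadjusted p of edgeR's quasi-likelihood test was 0.049 for Cd74, 0.050 for H2-Eb1, 0.061 for H2-Ab1 and 0.077 for H2-Aa, and the Benjamini-Hochberg adjusted p over all genes was 0.9998 for each of the 6. Over the alternatives the adjusted p ran from 0.897 to 1 for these 4 genes. A two-sided exact permutation test gave 0.2 for H2-Eb1 and H2-Ab1 and 0.3 for H2-Aa and Cd74, where the smallest p that 3 against 3 allows is 0.1.

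The groups overlapped for every member in that comparison, and 2.34% of genes tested lay higher in WT-KI without overlap. edgeR called 0 of 15413 genes (0%), DESeq2 also called 0, and 171 genes had an unadjusted p under 0.05. For these 4 genes WT-KI replicates 1 and 2 lay above all wild-type testes and replicate 3 lay among them. Without replicate 3 the log2 differences were 1.61 for H2-Aa, 1.38 for Cd74, 1.35 for H2-Eb1 and 0.63 for H2-Ab1. Over the leave-one-out fits the lowest were 0.89, 0.72, 0.79 and 0.42. WT-KI replicate 3 also had the lowest stage score of the 9.

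Against stage, no member passed the test. The slope on the stage score, fitted over the 9 testes with genotype in the model, was 0.12 ± 0.11 log2 units per unit of score for H2-Eb1, 0.05 ± 0.14 for H2-Aa, -0.03 ± 0.05 for H2-Ab1, 0.14 ± 0.07 for H2-DMa, 0.03 ± 0.07 for H2-DMb1 and 0.02 ± 0.10 for Cd74. The adjusted p of edgeR's test was 0.141 for H2-DMa, 0.443 for H2-Eb1 and 0.757 to 0.892 for the other 4. So 0 of 6 members passed an adjusted p of 0.05, where 26.2% of the 15771 genes tested did, 2778 with a rising and 1355 with a falling slope; limma on log2(FPKM + 0.1) called 2223 rising and 2483 falling. With the stage score in the model the log2 difference of H2-Eb1 in KI-KI was -1.26 against WT-WT and -2.27 against WT-KI. The choice of members used both differences, and the part of stage in them was not tested.

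**Figure D3:**
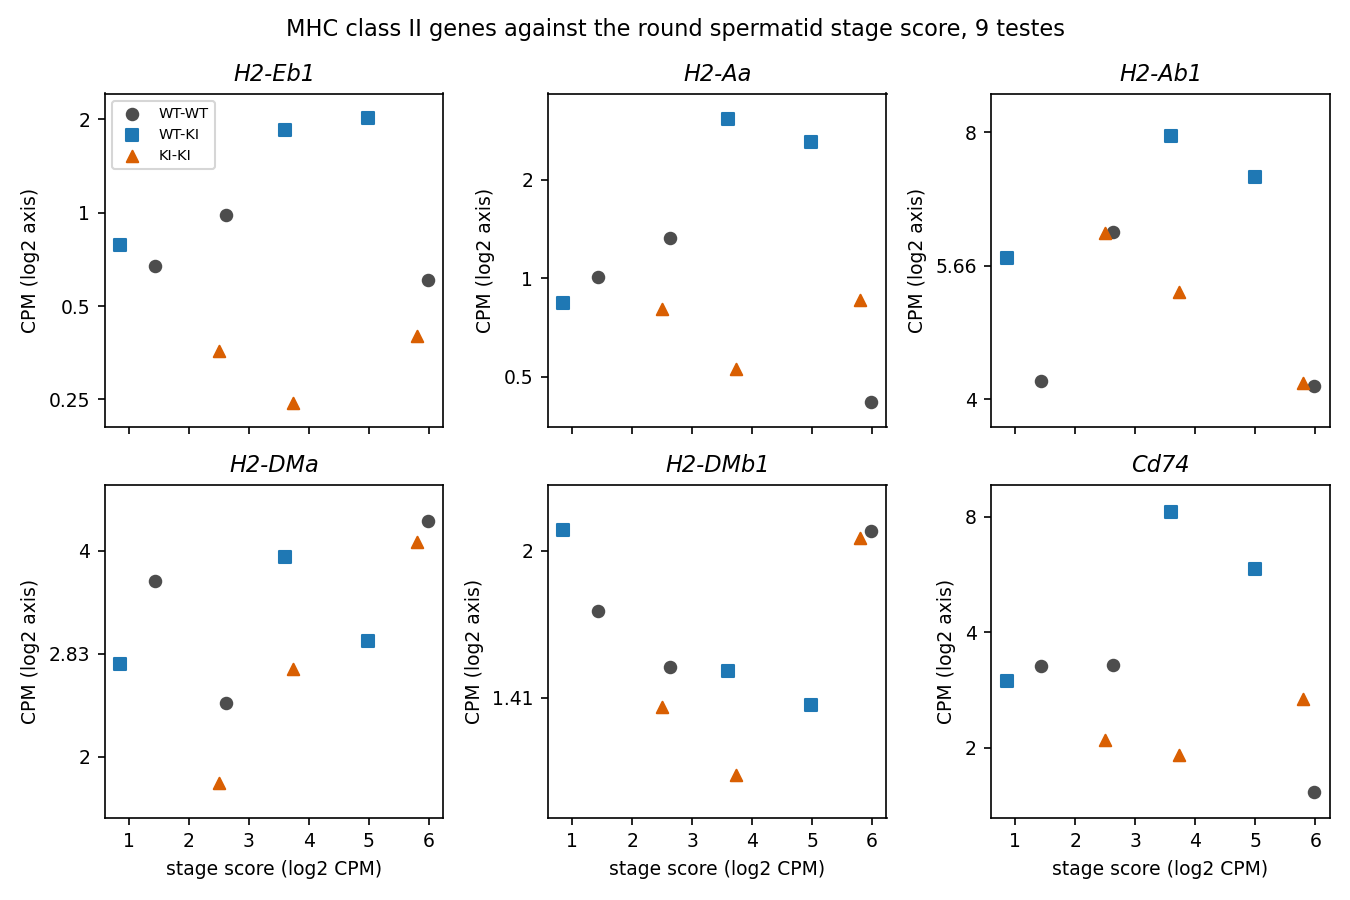
CPM of 6 class II genes (vertical axes, log2) against the stage score of each testis (horizontal axes, average over 19 spermatid genes in log2 CPM), with symbols for genotype. No gene has a slope that passed the test. The KI-KI points of H2-Eb1 lie between 0.24 and 0.40 CPM at scores from 2.50 to 5.80. They are low by the choice of H2-Eb1, so nothing is read from their spread over stage.

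H2-Aa, Cd74 and H2-Eb1 varied together from testis to testis, and the DM genes did not rise and fall with them over the 9 testes. Across the 9 testes, in log2 CPM, H2-Aa and Cd74 had a Pearson r of 0.98 (Spearman rho 0.98), H2-Eb1 had 0.86 with each of them (rho 0.82 with H2-Aa, 0.87 with Cd74), and H2-Ab1 had 0.76 with H2-Aa, 0.71 with Cd74 and 0.63 with H2-Eb1. H2-DMa and H2-DMb1 had 0.56 with each other and -0.56 to 0.22 with the other 4. These are descriptions over 15 pairs, with no test, and both genes of a pair share a library and its depth. The r values of H2-Eb1 rest in part on its KI-KI values, which are low by the choice of members. Without the 2 testes farthest from the median of the first gene, r was 0.93 for H2-Aa with Cd74, 0.53 for H2-Eb1 with H2-Aa and 0.57 for H2-Eb1 with Cd74. It was 0.37 for H2-Aa with H2-Ab1, 0.64 for H2-Ab1 with Cd74 and 0.09 for H2-Eb1 with H2-Ab1. The gene named first set the testes left out, so these may differ between pairs. Apart from H2-Aa with Cd74 and H2-Ab1 with Cd74, these relations rest in good part on the testes left out. Between a DM gene and the other 4, r without 2 testes ran from -0.35 (H2-Aa with H2-DMa) to 0.52 (H2-Eb1 with H2-DMb1). For deviations from the mean of each genotype, r was 0.96 for H2-Aa with Cd74, 0.91 for H2-Eb1 with H2-Aa, 0.81 for H2-Eb1 with Cd74, and 0.59, 0.46 and 0.55 for H2-Ab1 with H2-Aa, Cd74 and H2-Eb1. For these deviations the DM genes had 0.51 with each other. With the other 4 they had -0.78 (H2-DMb1 with H2-Ab1) to 0.09 (H2-DMa with Cd74).

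**Figure D4:**
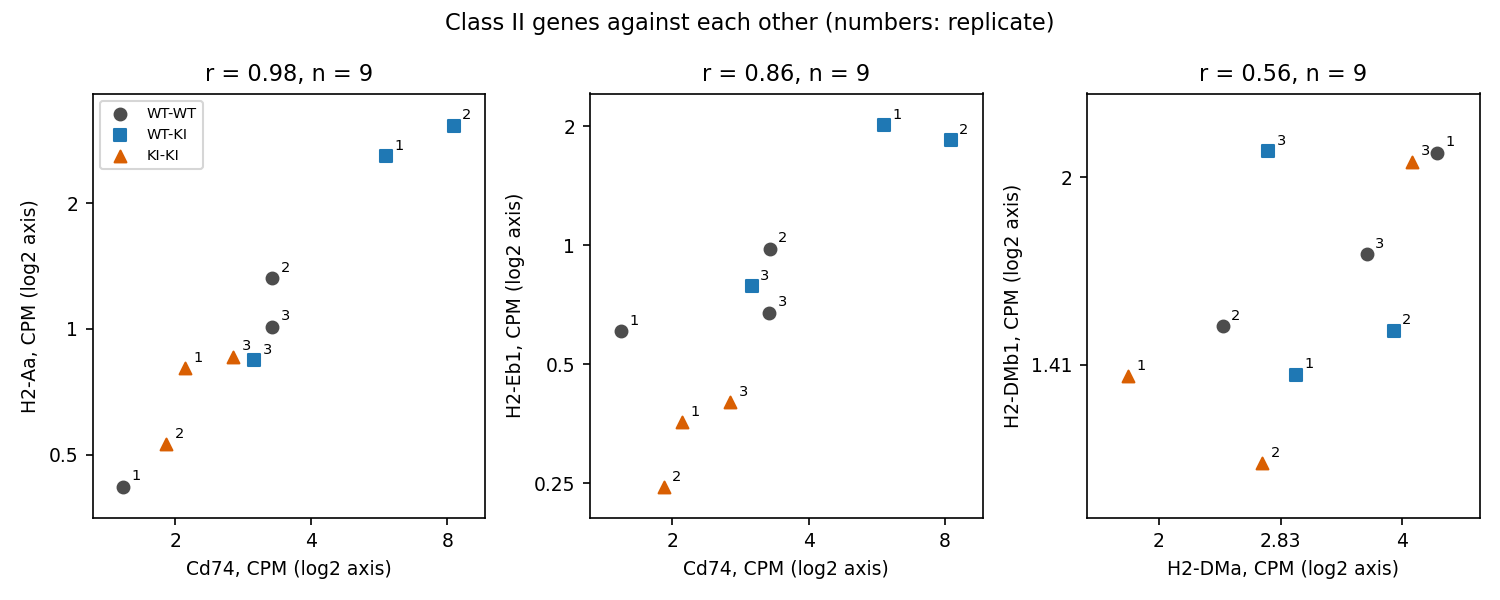
CPM of pairs of class II genes in the 9 testes (both axes log2), with symbols for genotype and numbers for the replicate. H2-Aa follows Cd74 (r = 0.98) through all 3 genotypes. The 3 KI-KI points of H2-Eb1, low by the choice of members, lie at the bottom of the plot against Cd74.

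The ratio of H2-Aa to Cd74 stayed between 0.305 and 0.496 in FPKM over the 9 libraries, through a 5.38-fold range of Cd74 in CPM. The ratio of H2-Eb1 to H2-Ab1 was 0.113 ± 0.006 (SD, n = 3) in WT-WT, 0.164 ± 0.052 in WT-KI and 0.054 ± 0.019 in KI-KI, and its low value in KI-KI follows from the choice of H2-Eb1, so nothing is read from it.

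Among 15770 genes ranked by Pearson r with H2-Eb1 over the 9 testes, the nearest were Cd74 (0.86) and H2-Aa (0.86). Then came Asap3, Kcnh3, Snrnp70, D2hgdh, Purg, Sh3bp4, Imp4 and Telo2, down to 0.83. H2-Ab1 stood at place 227, H2-DMa at 3665 and H2-DMb1 at 7301. For the mean of H2-Aa, H2-Ab1 and Cd74, the 10 nearest of 15768 genes were Cited1 (0.91), Lzts2, Sox11, Rpusd4, Hoxd4, Sall2, Xylb, Nagpa, Hoxc4 and Imp4 (0.86), with H2-Eb1 at place 12 (0.85). Apart from Cd74 and H2-Aa, no gene on either list belonged to the marker or pathway lists used here. Nothing on shared function is read from these places, which compare 9 points over all genes tested. The KI-KI values of H2-Eb1, low by the choice of members, enter its r and its places, so nothing is read from those.

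The other class II chains were almost silent. H2-Ea had 0 counts in all 9 libraries, which allows up to 0.167 CPM in the shallowest. H2-Oa, the alpha chain of the DM inhibitor H2-O, had at most 1 count in a library, H2-Eb2 at most 3, H2-Ob, the H2-O beta chain, at most 4 and H2-DMb2 at most 9.11. None passed the count filter.

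The factors that bind class II promoters were well expressed, and none was called between genotypes. The RFX subunits Rfx5, Rfxap and Rfxank, the NF-Y subunits Nfya, Nfyb and Nfyc and Creb1 averaged 6.45 (Rfxank) to 17.1 FPKM (Nfyc), far above Ciita, and 0 of 7 were called in any comparison of genotypes. Their median log2 fold change was -0.08 for KI-KI against WT-WT, -0.14 for KI-KI against WT-KI and 0.09 for WT-KI against WT-WT, where the median of all genes tested was -0.01, 0.01 and -0.02. On the stage score, 2 of 7 fell: Creb1 (slope -0.08 ± 0.02, adjusted p = 0.0230, edgeR) and Nfyc (-0.08 ± 0.03, adjusted p = 0.0295). With 26.2% of all genes tested called on that score, this count and those of the lists that follow are descriptions of single genes and not results about a list.

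The route from interferon gamma, the main inducer of Ciita, was present without its ligand. Ifng had 0 counts in all 9 libraries, while its signalling kinase Jak1 averaged 20.6 FPKM and the receptor chain Ifngr2 10.4. Of 10 genes 9 were tested and 0 were called between genotypes, with medians of -0.11, -0.21 and 0.13 in the same order of comparisons. Irf1, a transcription factor that helps switch on Ciita, was at -0.25, -0.54 and 0.29, the lowest, lowest and highest value of the list. Spi1 was at -0.025, 0.427 and -0.455 and Irf8 at -0.11, 0.351 and -0.464, so the list did not move in one direction. On the stage score the receptor chains Ifngr1 (-0.11 ± 0.03) and Ifngr2 (-0.12 ± 0.03) fell and Irf2 rose (0.18 ± 0.04), with adjusted p of 0.0239, 0.00430 and 0.0101 by edgeR.

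No gene of endosomal processing or class I presentation was called between genotypes. Among 8 proteases and reductases of antigen processing 0 were called, and the medians were 0.06, -0.02 and 0.07. Cathepsin S (Ctss), which trims the invariant chain, was at -0.13, -0.21 and 0.08, with 4.35 FPKM over the 9 testes, while cathepsin L (Ctsl), also abundant in Sertoli cells, had 307 FPKM. On the stage score 1 of 8 fell, the endopeptidase Lgmn (-0.10 ± 0.02, adjusted p = 0.00460, edgeR). Among 11 genes of the class I route 0 were called, with medians of -0.01, -0.16 and 0.16. The heavy chain H2-K1 (65.1 FPKM) and its partner B2m (32.3 FPKM) were far more abundant than any class II gene, and both fell slightly with stage (-0.05 ± 0.02 and -0.08 ± 0.02, adjusted p = 0.0447 and 0.0318, edgeR).

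Class II turnover and the T cell partners of class II were thinly covered. Of 5 turnover genes, Il10 had 0 counts everywhere and 2 to 4 entered a comparison of genotypes, with 0 called. The ubiquitin ligase Marchf8 (15.4 FPKM) fell with stage (-0.09 ± 0.02, adjusted p = 0.0141, edgeR), and Marchf1, the ligase best known for removing class II from the surface, averaged 0.22 FPKM. Of Cd4, Lag3 and the costimulatory genes Cd80, Cd86 and Cd40, 1 to 3 entered a comparison, with 0 called there or on the stage score.

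Markers of the cells that carry class II were measured beside it. The 14 macrophage genes were all detected, led by Lyz2 (16.7 FPKM), Aif1 (13.1 FPKM) and C1qa (8.09 FPKM), and 0 were called between genotypes. Aif1 rose with stage (0.91 ± 0.04 per unit, adjusted p = 1.2e-09, edgeR), with 29 counts in WT-KI replicate 3 and 797 in WT-WT replicate 1. Csf1r also rose (0.09 ± 0.03, adjusted p = 0.0374, edgeR) and Mertk fell (-0.08 ± 0.03, adjusted p = 0.0341, edgeR). Without Aif1 the summed macrophage FPKM was 56.8 to 62.9 in WT-WT, 53.4 to 66.8 in WT-KI and 58.9 to 73.1 in KI-KI. The summed FPKM of H2-Eb1, H2-Aa, H2-Ab1 and Cd74 was 4.86 to 9.33, 8.54 to 16.5 and 6.04 to 7.73 in the same groups.

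With the macrophage score as a covariate, H2-Eb1 in KI-KI was at -1.30 against WT-WT and -2.37 against WT-KI, and Cd74 was at -0.31 and -1.39. With Aif1 left out of the score, a choice made after seeing the data, H2-Eb1 was at -1.23 and -2.30. These differences are ones that the choice of members used, and the part of macrophage RNA in them was not tested further. Relative to the macrophage score without Aif1, the log2 level of H2-Eb1 was -2.86 ± 0.39 (SD, n = 3) in WT-WT, -1.88 ± 0.72 in WT-KI and -4.01 ± 0.22 in KI-KI.

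**Figure D5:**
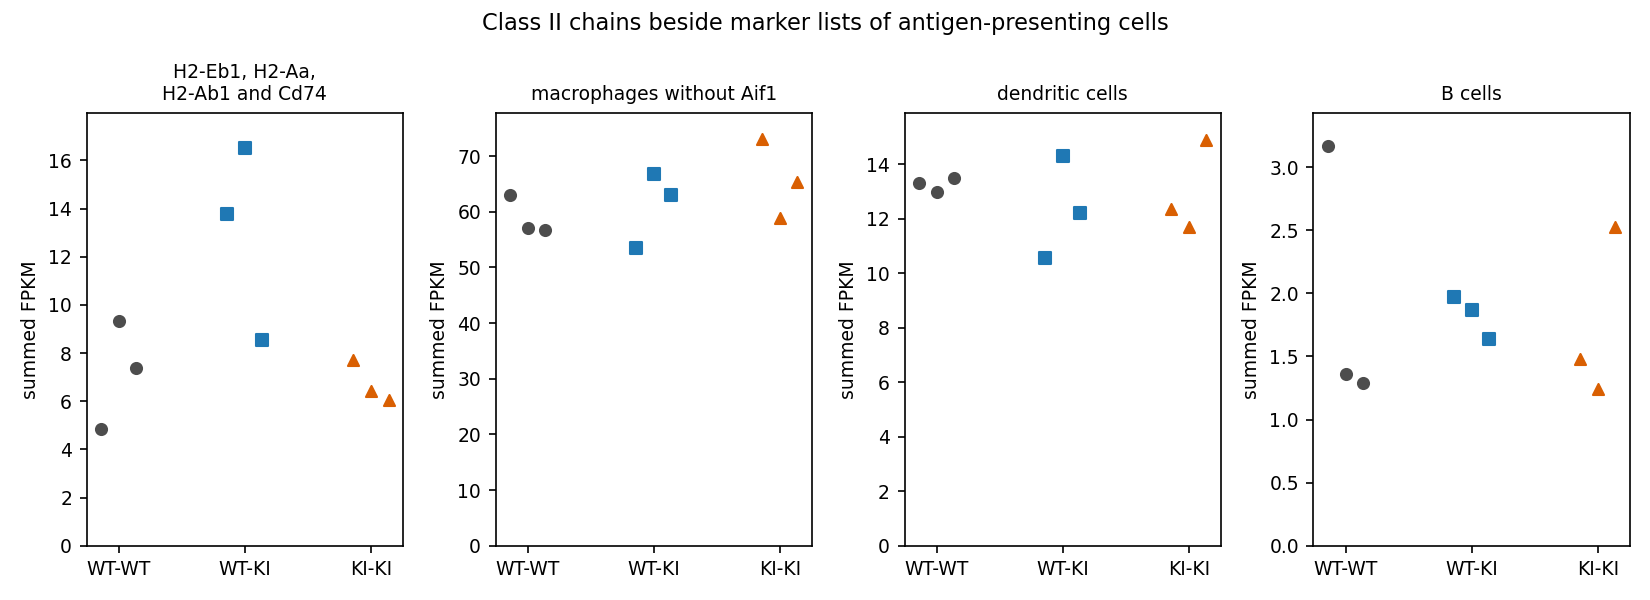
Summed FPKM in each testis (vertical axes, from 0) of 4 class II genes and of marker lists of macrophages, dendritic cells and B cells, by genotype. The class II sum is 4.86 to 9.33 in WT-WT, 8.54 to 16.5 in WT-KI and 6.04 to 7.73 in KI-KI. The macrophage sum without Aif1 is 56.8 to 62.9, 53.4 to 66.8 and 58.9 to 73.1 in the same groups. The B cell sum includes Pax5, which rose with stage. The choice of members used the differences of KI-KI from both other groups.

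Of 9 dendritic cell genes 4 were tested and 0 were called, and the summed FPKM was 13.0 to 13.5, 10.6 to 14.3 and 11.7 to 14.9 in WT-WT, WT-KI and KI-KI. Most of that sum came from Fscn1 (7.19 FPKM) and Zbtb46 (3.62 FPKM), which other cells also express. Defining genes were near 0, with at most 6 counts of Itgax, 5 of Clec9a and 1 of Cd209a in a library. Of 6 B cell genes 3 were tested and 0 were called between genotypes, with sums of 1.29 to 3.17, 1.64 to 1.97 and 1.24 to 2.53. Cd79a, part of the B cell receptor, had at most 4 counts, while Pax5 rose with stage (0.69 ± 0.09, adjusted p = 5.8e-05, edgeR). Pax5 is part of these B cell sums and reached 1.58 FPKM in WT-WT, 0.62 in WT-KI and 1.38 in KI-KI. The sums of 6 T cell genes were 2.98 to 4.31, 2.57 to 4.09 and 2.58 to 3.56, and those of 6 genes of all leukocytes 9.67 to 10.54, 7.46 to 11.8 and 11.4 to 11.9, with 0 called in either list.

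Markers of fat, epididymis and steroid-producing Leydig cells had positive medians in KI-KI against WT-KI. Of 7 fat genes 4 were tested between KI-KI and WT-KI, with a median log2 fold change of 1.31. The epididymal list had a median of 1.54 over 4 of 11 genes, with Lcn8, Lcn9, Gpx5 and Defb15 at 0 in all 9 libraries. In that list Crisp1 was at 2.76 ± 2.14 (SE) and Ces5a at 2.38 ± 1.66, through KI-KI replicate 1 alone. It had 883 and 315 counts of them, against 0 and 3 in KI-KI replicate 2 and 0 and 5 in replicate 3. The 6 Leydig cell genes had a median of 0.51, and their summed FPKM was 105.6 to 279.6 in WT-WT, 106.8 to 208.7 in WT-KI and 204.7 to 279.1 in KI-KI. None of these genes was called between genotypes. Against WT-WT the medians were 0.52, -0.07 and 0.31. Without KI-KI replicate 1, the library rich in epididymal RNA, H2-Eb1 was at -1.23 against WT-WT and -2.27 against WT-KI. The part of fat and Leydig cell RNA in the class II values was not tested. In the Sertoli, peritubular myoid and endothelial lists, 0 genes were called between genotypes and the medians for KI-KI against WT-KI were -0.15, -0.01 and 0.04.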

How the data were processed

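RNA-seq of 9 testes from 3-week-old mice (3 genotypes, 3 libraries each) was analysed. The authors prepared libraries with the VAHTS mRNA-seq v2 kit, sequenced 150 bp paired ends, filtered reads with fastp 0.18.0 and computed the deposited FPKM with StringTie 1.3.1; the labels name build mm39. The deposited table also holds estimated counts per gene, 89.2% of them whole. Aligner, annotation release and counting tool are not given in the sources used here. FPKM rests on assembled transcripts, so it need not follow the counts of low genes.

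Estimated counts were rounded, filtered with filterByExpr, scaled by TMM and tested with edgeR 4.0.16 (quasi-likelihood, two-sided, Benjamini-Hochberg over all genes, R 4.3.3) between 2 genotypes at a time, and for a slope on the stage score over 9 libraries with genotype in the model. log2 CPM used a prior count of 1. Alternatives were DESeq2 1.42.0 or its size factors, other filters, limma 3.58.1 on log2(FPKM + 0.1) or log2(FPKM + 1), other models and leaving out each library. The scripts were checked on simulated data. The members and gene lists were chosen with earlier results of these data known. Genes named are the 7 members, the most abundant and the called genes of each list with other examples chosen after their values were seen, and the 10 nearest by correlation. Upstream sequences are from RefSeq (GRCm38.p6), and no coordinate was taken from the expression table. The values of 1 listed gene are not reported here.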

Additional observations from a re-analysis of the deposited data

How the results depend on the processing

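The absence of called genes between genotypes held for every edgeR and limma alternative, and DESeq2 called 1 gene (KI-KI against WT-WT) and 2 genes (KI-KI against WT-KI). The genes called on the stage score numbered 4133, 1132 with the macrophage score as a covariate, 0 with the spermatocyte score in place of the round spermatid score, and 2093 to 6198 when 1 library was left out, the lowest without WT-WT replicate 1; the cause was not tested. H2-Eb1 in KI-KI was negative in every alternative, at -0.76 on log2(FPKM + 0.1) and -0.24 on log2(FPKM + 1) against WT-WT, and -0.66 on log2(FPKM + 1) against WT-KI, where H2-Aa was at -0.77. A pseudocount of 1 exceeds every value of both genes in KI-KI. H2-Eb1 is absent from the fits that ask for 10 counts in every KI-KI library.

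Slopes changed sign in several fits, none past the threshold. With the spermatocyte score they were -2.68 (H2-Eb1), -2.09 (H2-Aa), -1.24 (H2-DMa), -0.28 (H2-DMb1) and -1.06 (Cd74) per unit of that score. Of its 9 genes 5 fell with the stage score and 1 rose, so a negative slope on it need not be a reversed direction. H2-DMb1 was at -0.0020 on log2(FPKM + 0.1), -0.0017 on log2(FPKM + 1) and -0.064 with the macrophage score, and Cd74 at -0.018 on log2(FPKM + 0.1) and -0.00041 on log2(FPKM + 1). With 1 library left out, the lowest and highest slopes were -0.030 to 0.27 (H2-Eb1), -0.18 to 0.29 (H2-Aa), -0.094 to 0.012 (H2-Ab1), -0.026 to 0.10 (H2-DMb1) and -0.14 to 0.21 (Cd74), those of H2-Eb1, H2-Aa and Cd74 below 0 only without WT-KI replicate 3. For WT-KI against WT-WT the left-out ranges were -0.30 to 0.088 for H2-DMa and -0.31 to 0.031 for H2-DMb1.

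Replicate numbers are shared by the genotypes but do not pair the samples. Deviations of same-numbered libraries from their group means correlated at -0.73 to 0.78 over the 9 pairs, and not every pair exceeded 0.1. With a replicate block, 0 genes were called between genotypes and 3401 on the stage score, and the slope of H2-DMa was 0.20 with an adjusted p of 0.0489 (edgeR). Depth limits Ciita and H2-Eb1 most, since 3 counts stand for up to 0.167 CPM.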
